A study of Mus musculus with 12 samples.

Results

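A total of 1355 regions carried H3K27me3 and overlapped H3K4me3 in organoids grown from mouse mammary tumours of the PyMT model. They were chosen by position alone: overlapping H3K27me3 peaks of 6 libraries were merged on chromosomes 1 to 19 and X, and a merged region was kept when at least 1 bp of it lay in an H3K4me3 peak of any of 6 H3K4me3 libraries. They made up 32.4% of the 4183 merged H3K27me3 regions, and the other 2828 had no H3K4me3 peak. Both marks were profiled by CUT&Tag, in which a Tn5 transposase tethered to an antibody cuts and tags the DNA around the mark. The organoids, wild type per the labels, received a control treatment (Ctrl), SR2 or THC and were taken 3 days after treatment, with 2 libraries per mark and treatment. The sources used here do not say what SR2 stands for, and give no dose. The labels name 1 line of PyMT-derived organoids and do not say whether the replicates were separate cultures, so p-values measure only the spread between these libraries, which may be technical. Replicates 1 and 2 are batches 1 and 2.

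H3K4me3 is laid down at active and poised promoters, largely at CpG islands, by Trithorax-type methyltransferases. H3K27me3 is written by Polycomb repressive complex PRC2, whose catalytic subunits are Ezh1 and Ezh2, and marks silenced developmental genes. Promoters that carry both marks, called bivalent, were described in embryonic stem cells at genes of lineage-specifying transcription factors, which are kept silent but ready for activation. In a bulk profile, both marks on the same chromatin and each mark in other cells or alleles cannot be told apart. Tn5 also inserts into accessible DNA without an antibody, so H3K27me3 peaks that lie within strong H3K4me3 peaks were kept apart from those that reach beyond them. Whether open chromatin gave rise to any peak was not tested, since no input, IgG or accessibility data were used here.

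The DNA under the overlap is shown for 5 promoters, 3 of transcription factors of development and 2 of widely expressed genes. Each is the RefSeq promoter window of GRCm38.p6 (the assembly of mm10), from 250 bases before to 50 after the gene start, read 5′ to 3′ on the strand of the gene, with each CG dinucleotide in capitals.
Sox2: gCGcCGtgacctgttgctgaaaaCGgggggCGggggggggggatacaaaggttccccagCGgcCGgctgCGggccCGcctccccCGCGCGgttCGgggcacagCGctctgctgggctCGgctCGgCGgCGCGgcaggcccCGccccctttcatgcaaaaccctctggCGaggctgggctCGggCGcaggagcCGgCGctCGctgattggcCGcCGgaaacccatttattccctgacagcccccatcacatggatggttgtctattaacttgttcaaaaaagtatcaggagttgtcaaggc
Foxd1: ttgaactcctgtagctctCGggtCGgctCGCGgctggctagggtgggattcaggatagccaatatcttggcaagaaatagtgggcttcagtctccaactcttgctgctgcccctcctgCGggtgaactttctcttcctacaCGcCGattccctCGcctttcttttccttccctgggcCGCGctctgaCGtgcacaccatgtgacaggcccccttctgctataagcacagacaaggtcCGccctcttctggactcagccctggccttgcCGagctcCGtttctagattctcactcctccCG
Twist1: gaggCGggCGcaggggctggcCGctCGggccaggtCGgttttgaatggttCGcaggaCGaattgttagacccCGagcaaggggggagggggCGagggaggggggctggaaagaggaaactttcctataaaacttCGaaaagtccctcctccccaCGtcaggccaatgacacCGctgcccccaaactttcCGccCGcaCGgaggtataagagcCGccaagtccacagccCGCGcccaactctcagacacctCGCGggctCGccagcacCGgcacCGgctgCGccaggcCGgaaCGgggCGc
Kdm6a: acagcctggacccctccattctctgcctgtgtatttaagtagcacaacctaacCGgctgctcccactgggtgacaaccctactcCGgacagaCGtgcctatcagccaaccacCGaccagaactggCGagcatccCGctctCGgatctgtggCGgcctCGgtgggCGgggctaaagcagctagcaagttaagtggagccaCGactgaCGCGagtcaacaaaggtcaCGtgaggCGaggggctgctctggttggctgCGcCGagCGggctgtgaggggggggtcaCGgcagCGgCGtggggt
Fkbp2: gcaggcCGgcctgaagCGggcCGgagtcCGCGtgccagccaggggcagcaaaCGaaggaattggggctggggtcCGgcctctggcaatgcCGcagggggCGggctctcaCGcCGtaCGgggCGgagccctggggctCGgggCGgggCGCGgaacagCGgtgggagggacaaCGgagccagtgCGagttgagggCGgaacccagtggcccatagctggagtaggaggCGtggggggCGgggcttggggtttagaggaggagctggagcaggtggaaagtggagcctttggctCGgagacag

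The Sox2 window (chr3:34649745-34650044, plus strand) held 27 CG dinucleotides, with all 300 bases in the H3K27me3 region and 203 in H3K4me3 peaks. The Foxd1 window (chr13:98353995-98354294, plus strand) held 15, with 300 bases under H3K27me3 and 293 under H3K4me3. The Twist1 window (chr12:33957421-33957720, plus strand) held 27, with 300 and 268 bases. The windows of Kdm6a (chrX:18162325-18162624, plus strand) and Fkbp2 (chr19:6980037-6980336, minus strand) held 21 and 24 CG dinucleotides and lay wholly under both marks. The median over all protein-coding windows was 13, so Foxd1 lay near it and the others above. Being 5 chosen windows, they show no relation to the reach of H3K27me3 beyond H3K4me3.

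Promoters at the overlapping regions were CpG-rich. Observed over expected CpG, the count of CG relative to that given by the C and G content, had a median of 0.824 over 1111 promoter windows of protein-coding genes at the overlapping regions. The median was 0.775 over 11000 windows with H3K4me3 only, 0.633 over 188 with H3K27me3 only, and 0.210 over 8737 with neither. It was 0.574 over all 21045 protein-coding windows, and 0.387 over all 32619 RefSeq windows, which include noncoding genes. At least 1 CG, a motif that reads the same on both strands, was present in 94.7% of all windows, 95.5% of protein-coding windows and 99.9% of member windows. A ratio of 0.6 or more was reached by 85.8% of member windows, 75.2% of those with H3K4me3 only and 53.7% of those with H3K27me3 only. It was reached by 48.1% of all protein-coding windows and 36.0% of all windows. The 20 member windows of the developmental lists described further on had a median of 0.738, with quartiles of 0.638 and 0.889. Quartiles of the 1025 other windows inside H3K4me3 peaks were 0.702 and 0.936, so the ranges overlapped.

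**Figure D1:**
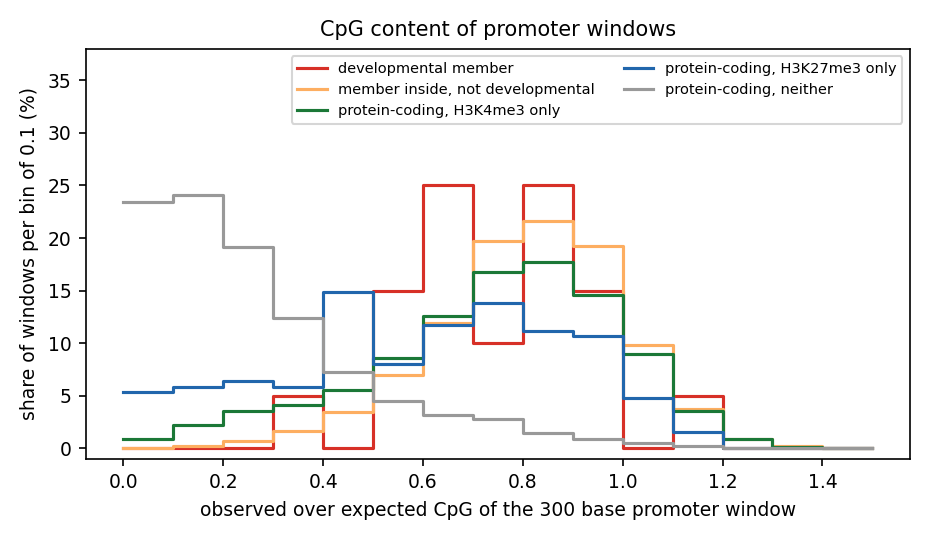
Distribution of observed over expected CpG (x axis, bins of 0.1) in 300 base promoter windows, as the share of windows of each set in percent (y axis). Windows at overlapping regions (red, 20 developmental, and orange, 1025 others) lie mostly above 0.6, as do H3K4me3-only windows (green), while windows with neither mark (grey) lie mostly below 0.4.

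The labelled tissue showed in H3K4me3 at the starts of luminal epithelial genes: 5 of 6 luminal markers (Krt8, Epcam, Cdh1, Elf3 and Cldn4) had a peak in all 6 libraries and Krt18 in 5. Of the basal markers, Krt5 and Krt14 had a peak in 5 libraries, and Trp63 and Acta2 had none. Col1a2, Pdgfra, Dcn, Pecam1, Cdh5, Ptprc and Cd3e, markers of fibroblasts, endothelium and blood, had none either, while Col1a1, Kdr and Cd68 had a peak in 3 or 4 libraries. None of the marker starts named here had H3K27me3. H3K27me3 lists were very unequal in length: replicate 1 of Ctrl, SR2 and THC had 2708, 839 and 983 peaks, and replicate 2 had 386, 157 and 70. H3K4me3 lists were closer, with 18383, 14812 and 11924 peaks in replicate 1 and 16442, 15189 and 13227 in replicate 2. Peak lists carry no read totals, so the depth is unknown.

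The Ctrl replicate 1 list stood apart in length and supplied much of the overlap: 589 of the 1355 regions (43.5%) had an H3K27me3 peak in that library alone. Most members were marked in few libraries, 1010 in 1 and 206 in 2, and only 25 in all 6. Even so, 345 members (25.5%) were marked in at least 2 H3K27me3 libraries, against 206 (7.28%) of the regions without H3K4me3, and 159 (11.7%) against 113 (4.00%) were marked in both batches. On the H3K4me3 side the overlap was steadier, with a peak in all 6 libraries at 891 members (65.8%) and in 1 library at 208 (15.4%). Peaks of both marks from the same treatment and replicate lay in the region, touching each other or not, at 1179 members (87.0%). H3K27me3 peaks at members that themselves overlapped H3K4me3 of the same treatment and replicate were fewer than all such peaks. They were 708 of 868, 372 of 428 and 278 of 402 in replicate 1 of Ctrl, SR2 and THC. In replicate 2 they were 69 of 141, 53 of 74 and 50 of 61. Without the Ctrl replicate 1 list, the merged regions that overlapped H3K4me3 numbered 761, of which 534 lay at gene starts.

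Overlapping regions were found at gene starts far more often than the rest. H3K4me3 is itself laid down at promoters, so position at a gene start is tied to the rule in part. A gene start was the RefSeq promoter window widened by 1 kb on each side or, for the 7534 genes with no window, 1 kb around either gene end. By this measure 1016 of 1355 members (75.0%) and 348 of 2828 other regions (12.3%) lay at a gene start, 987 of the members at a protein-coding gene and 343 at starts shared by several genes. Only 163 of the 1016 rested on a gene end alone, which may be the 3′ end. Per library, the share of overlapping peaks at a gene start was 73.2%, 67.8% and 67.7% in the batch 1 libraries of Ctrl, SR2 and THC, and 37.6%, 35.1% and 9.84% in batch 2. For the peaks without H3K4me3 it was 14.1%, 15.3% and 18.1% in batch 1, and 26.1%, 21.7% and 11.1% in batch 2. The mean difference was 30.8 percentage points, positive in 5 of 6 libraries with THC replicate 2 as the exception, and did not pass the threshold (exact two-sided sign-flip permutation p = 0.0625, n = 6 libraries, smallest possible p = 0.03125). It did pass at p = 0.03125 (exact permutation test) when at least 50% of the region had to overlap, or when only H3K4me3 peaks of −log10 q of at least 5 counted. With only H3K27me3 peaks of −log10 q of at least 2, the difference shrank to 10.7 points (exact permutation p = 0.156).

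Within each list, peaks were ranked by the authors' −log10 q, as a percentile in which 100 is the strongest peak. H3K27me3 peaks at overlapping regions had a higher median rank than the other H3K27me3 peaks in 6 of 6 libraries, with mean medians of 59.8 and 40.2 (difference 19.6, exact sign-flip permutation p = 0.03125, n = 6). H3K4me3 peaks that met H3K27me3 stood higher in their own lists, with mean medians of 83.2 and 47.9, again in 6 of 6 libraries (difference 35.2, exact sign-flip permutation p = 0.03125, n = 6). They were also longer, at 1185 against 862.5 bp (log2 ratio 0.46, 6 of 6 libraries, exact sign-flip permutation p = 0.03125, n = 6). Overlapping H3K27me3 peaks were longer as well, at 381 against 306 bp (log2 ratio 0.33, 6 of 6 libraries, exact sign-flip permutation p = 0.03125, n = 6). A longer peak has more chance of an overlap, so length is tied to the rule in part. The part of length in the rank differences was not tested, so rank may be tied to the rule as well.

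The 1016 regions at gene starts fell into 3 classes by how far H3K27me3 reached beyond H3K4me3. In 907, called inside, at least 80% of the H3K27me3 region lay within H3K4me3 peaks. In 13, called extending, at least 1000 bp lay outside, and the remaining 96 were partial. Inside regions were short, with a median of 368 bp, had H3K4me3 in all 6 libraries in 90.2% of cases, and their H3K4me3 peaks had a median rank of 87.1. Extending regions had a median of 1569 bp with 1194 bp outside H3K4me3, none had H3K4me3 in all 6 libraries, 9 of 13 had it in a single library, and the median H3K4me3 rank was 15.2. Partial regions lay between, at 851.5 bp in length, 440.5 bp outside and a rank of 20.5. H3K27me3 was found in both batches at 9 of 13 extending (69.2%), 17 of 96 partial (17.7%) and 29 of 907 inside regions (3.20%). Because a short H3K4me3 peak leaves more of a region outside, the H3K4me3 ranks of these classes are a description. At the dividing line of 1000 bp, the nearest regions were Neurog2, with 973 bp outside, and Gm42303, with 1019 bp.

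**Figure D2:**
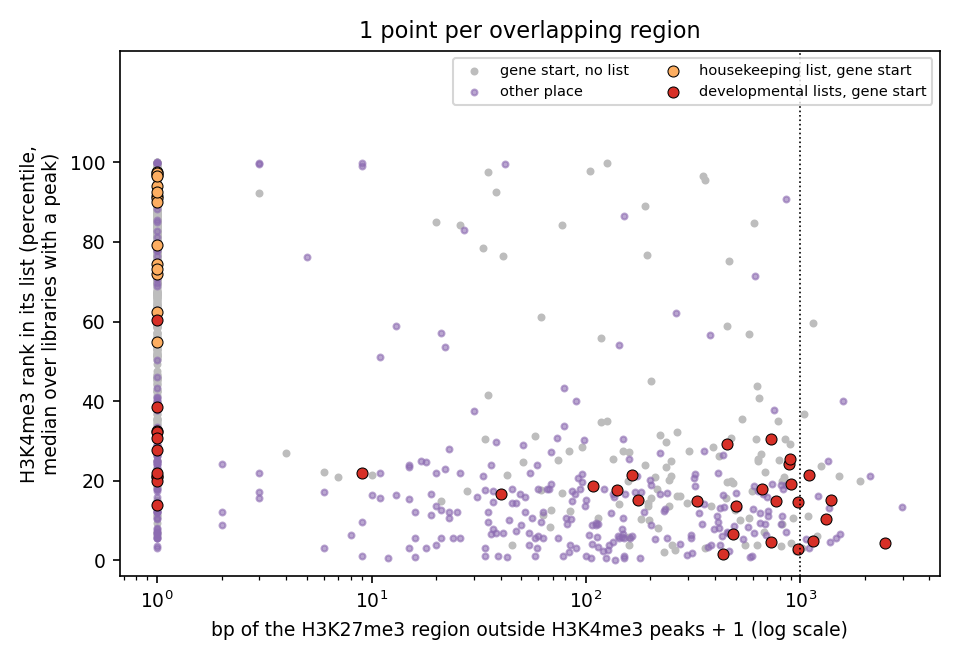
Each point is 1 of the 1355 overlapping regions; the x axis gives the bp of H3K27me3 outside H3K4me3 peaks plus 1 (log scale, dotted line at the 1000 bp limit) and the y axis the H3K4me3 rank in percentiles (median over libraries with a peak). Housekeeping starts (orange) all sit at the left edge with nothing outside, while developmental starts (red) sit low, most of them below a rank of 40.

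Sox2, a transcription factor of pluripotent and neural progenitor cells, was the extending start with the most H3K27me3 libraries among protein-coding genes (chr3:34649073-34651312). Its H3K27me3 peaks covered 1604 and 296 bp in the Ctrl libraries, 415 and 0 bp in SR2, and 2117 and 0 bp in THC. H3K4me3 covered 467 and 1056 bp of it in Ctrl and none in the 4 treated libraries. Both marks were therefore present together only in the Ctrl libraries. The fitted H3K4me3 change on the log2(bp + 200) scale was −1.66 ± 0.32 (SE) for SR2 and −1.42 ± 0.32 for THC, with limma adjusted p of 0.122 and 0.128 over all regions, past no threshold. Only regions marked in at least 2 libraries were fitted. This one had H3K4me3 in Ctrl alone, so the negative sign was set by the choice of regions. H3K27me3 changes there were −1.43 ± 1.48 and −0.47 ± 1.48, smaller than their errors.

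Neurod2, a neuronal basic helix-loop-helix factor (chr11:98327211-98328921), had H3K27me3 over 1711 and 1106 bp in Ctrl and 401 bp in SR2 replicate 1, and none in the other libraries. Its H3K4me3 was a single peak of 394 bp in Ctrl replicate 1. Tbx2, a T-box factor (chr11:85830941-85832957), had 1506 and 977 bp of H3K27me3 in Ctrl and none in SR2 or THC. Its H3K4me3 covered 528 and 539 bp in Ctrl, 631 and 25 bp in SR2 and none in THC. The limma change of H3K27me3 at Tbx2 was −2.82 ± 0.43 (SE) in both contrasts, which share the Ctrl libraries. It was equal because neither treatment had a peak there. The limma adjusted p was 0.0962 for SR2 and 0.0937 for THC, the smallest in each fit. Other regions, Cdh2 and Foxe3 among them, shared these adjusted values. Only regions marked in at least 2 libraries were fitted, and Tbx2 was marked in Ctrl alone, so its negative sign was set in advance. The region at Cdh2, which encodes N-cadherin, held peaks of both marks in Ctrl alone. They covered 1026 and 1520 bp for H3K27me3 and 632 and 495 bp for H3K4me3. In Ctrl replicate 2 the peaks of the marks did not touch each other. An H3K4me3 peak of THC replicate 1 lay next to the Cdh2 region without touching it.

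Other extending starts shared few libraries between the marks. Pou3f2, a neural POU factor, had 2816 and 569 bp of H3K27me3 in Ctrl and 305 bp in THC replicate 1, while its only H3K4me3 peak, 338 bp, was in THC replicate 2. Sim2, a bHLH-PAS factor, had H3K27me3 in Ctrl replicate 1 (1371 bp), SR2 replicate 2 (787 bp) and THC replicate 1 (382 bp), and H3K4me3 of 375 bp in SR2 replicate 2. Sdk1, a cell adhesion molecule, had 1430 and 582 bp of H3K27me3 in Ctrl, 431 bp in THC replicate 1, and 236 bp of H3K4me3 in SR2 replicate 2. In both Ctrl libraries, H3K4me3 peaks lay next to the Sdk1 region without touching it. Zc2hc1a entered the class on an overlap of 9 bp. Requiring an extending region at a gene start with both marks in at least 1 matched pair of libraries left 8 candidates for bivalency: Sox2, Neurod2, Sim2, Tbx2, Cdh2 and the noncoding or unnamed 9130024F11Rik, Platr30 and Evx1os. This number was 39 with a 500 bp limit, 0 with 2000 bp, and 2 without the Ctrl replicate 1 H3K27me3 list.

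Partial starts held the most widely marked developmental genes. Foxd1, a forkhead factor of kidney stroma (chr13:98353868-98355361), had H3K27me3 in 5 libraries, covering 1494 and 431 bp in Ctrl, 614 and 464 bp in SR2 and 546 and 0 bp in THC. Its peaks ranked from the 70.1 to the 97.9 percentile of their lists. H3K4me3 at Foxd1 covered 590 bp in Ctrl replicate 1, and 374 and 268 bp in SR2, and was missing from Ctrl replicate 2 and from THC. Hoxc13, a homeobox gene of hair and nail, had 756, 614, 701, 345 and 459 bp of H3K27me3 in every library except THC replicate 2, and 441 bp of H3K4me3 in Ctrl replicate 1 alone. Hmx2, a homeobox factor of the inner ear (chr7:131553591-131555629), had H3K27me3 over 1893 and 0 bp in Ctrl, 616 and 864 bp in SR2 and 1262 and 0 bp in THC. H3K4me3 there covered 1136 and 938 bp in Ctrl, 0 and 311 bp in SR2 and none in THC. Its H3K4me3 change was −1.81 ± 0.51 (SE) for SR2 and −2.25 ± 0.51 for THC, with limma adjusted p of 0.178 and 0.128. With no H3K4me3 in either THC library, the THC change could only be negative.

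Twist1, a driver of mesenchymal fate (chr12:33956999-33958714), differed in that its H3K4me3 was broad and found in each treatment: 1262 and 1069 bp in Ctrl, 0 and 1036 bp in SR2, and 0 and 984 bp in THC. H3K27me3 covered 1509, 901 and 935 bp in the batch 1 libraries of Ctrl, SR2 and THC and none in batch 2. In SR2 and THC, then, each library had 1 of the marks and not both. Ebf3, an early B-cell type factor, had 1057 and 732 bp of H3K27me3 in Ctrl, 433 bp in SR2 replicate 1 and 644 bp in THC replicate 1. H3K4me3 at Ebf3 was found in every library but THC replicate 1, over 223 to 427 bp. Aldh1a2, an enzyme of retinoic acid synthesis, had 1136 and 605 bp of H3K27me3 in Ctrl, 1095 and 0 bp in SR2 and 544 and 0 bp in THC, with H3K4me3 of 924 and 279 bp in Ctrl only. Foxa1, a pioneer factor of luminal mammary cells, was marked by H3K27me3 in Ctrl replicate 1 alone, over 1448 bp, with H3K4me3 of 498 bp in that library and 129 bp in SR2 replicate 2.

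**Figure D3:**
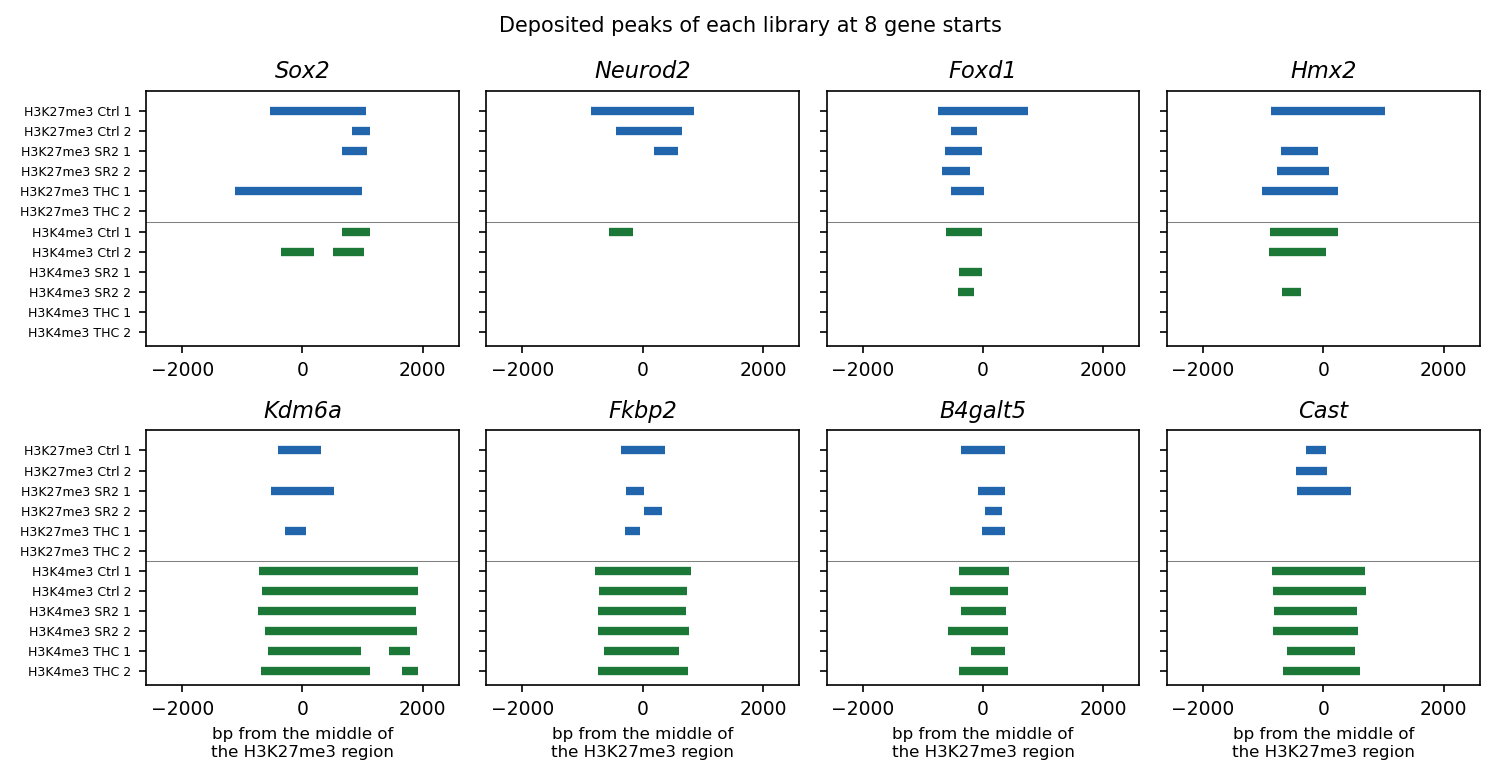
Deposited peaks at 8 gene starts, with the distance from the middle of the H3K27me3 region in bp on the x axis and 1 row per library (blue, H3K27me3; green, H3K4me3). In the upper row (Sox2, Neurod2, Foxd1, Hmx2) H3K27me3 reaches past H3K4me3 peaks that are missing from THC libraries and from some Ctrl or SR2 libraries. In the lower row (Kdm6a, Fkbp2, B4galt5, Cast) H3K27me3 lies within H3K4me3 peaks present in all 6 libraries.

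Gene lists set this pattern against other promoters. Of 208 transcription factors of development, 94 had H3K27me3 at the start, 29 of these with H3K4me3 (13.9% of the list), against 1183 of 21631 protein-coding genes (5.47%). This share was not particular to them, at 17.2% of the housekeeping list and 10.9% of the Polycomb and Trithorax list described below. The 29 split into 5 extending (Neurod2, Pou3f2, Sim2, Sox2 and Tbx2), 12 partial and 12 inside. The 12 inside included Dlx1, Dlx2, Dlx3, Dlx6, Emx1, Foxe1, Pax9, Prox1, Sox21, Tbx3 and Vax2. Most H3K27me3 at these genes had no H3K4me3: the overlap took in 30.9% of the 94 marked factors and 18.5% of 27 marked Hox genes (Hoxa4, Hoxc5, Hoxc6, Hoxc13 and Hoxd13), against 82.2% of all 1439 marked protein-coding genes. Among 64 morphogens and their antagonists, 10 had H3K27me3 and 2 overlapped H3K4me3, Bmp3 and Rspo3, the latter an enhancer of Wnt signalling.

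Housekeeping genes resembled protein-coding members in general, of which 91.5% lay inside with a median H3K4me3 rank of 84.5. Of 87, 15 had H3K27me3 at the start, and all 15 lay inside H3K4me3 peaks with no bp outside: Atp5b, Cct3, Cox4i1, Hnrnpa2b1, Hnrnpk, Hspa8, Ncl, Npm1, Polr2b, Ppia, Psmb2, Rpl5, Rps14, Tpi1 and Vcp. Their H3K4me3 had a median rank of 91.1 and none was marked by H3K27me3 in both batches. Hnrnpk, an RNA-binding protein, had 906 bp of H3K27me3 in SR2 replicate 1 and 467 bp in THC replicate 1, at ranks of 9.54 and 67.3. Hspa8, a constitutive chaperone, had 382 bp in Ctrl replicate 1 and 286 bp in SR2 replicate 1, and the other 13 were marked in 1 library each. Of 46 Polycomb and Trithorax genes, 5 overlapped (10.9%), all inside: Cbx8, Dpy30, Ezh1, Kdm6a and Pcgf1. Ezh1 itself had 330 bp of H3K27me3, at a rank of 7.90, in Ctrl replicate 1 only.

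The 36 overlapping starts of the 3 developmental lists had a median length of 832 bp with 380 bp outside H3K4me3, against 378 bp and 0 bp at the other 951 protein-coding starts. At least 2 H3K27me3 libraries marked 24 of the 36 (66.7%) against 155 of 951 (16.3%), and both batches marked 36.1% against 3.79%. H3K4me3 was present in all 6 libraries at 5.56% of the developmental and 86.1% of the other starts, with median ranks of 18.98 and 85.7. In Ctrl replicate 1, where 34 of the 36 had H3K27me3, the median H3K27me3 rank was 75.8 at developmental and 45.4 at other starts. The same order held in the other batch 1 libraries, with 65.2 against 46.5 in SR2 and 73.9 against 52.7 in THC. In batch 2 the ranks were 64.5 against 42.1 in Ctrl and 61.1 against 46.5 in SR2, from 11 and 4 developmental regions, and in the opposite order in THC, at 28.6 against 34.3, from 1 region.

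Regions inside H3K4me3 were the bulk of the overlap. Counting those whose H3K4me3 also ranked at or above the 50th percentile of its list left 834 members (61.5%), 790 of them at a gene start. This set has no length limit and takes in the longest member, 5599 bp. Kdm6a, an H3K27 demethylase (chrX:18161996-18163037), had 714, 1042 and 348 bp of H3K27me3 in the batch 1 libraries of Ctrl, SR2 and THC and none in batch 2, and H3K4me3 over all 1042 bp in every library. Its H3K27me3 rank was 8.27, 79.4 and 31.2. Fkbp2, a peptidyl-prolyl isomerase of the endoplasmic reticulum (chr19:6979796-6980523), had 728, 309, 292 and 262 bp in Ctrl replicate 1, both SR2 libraries and THC replicate 1. H3K4me3 covered all 728 bp in each library.

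Further inside starts had the same form. The start shared by Dcun1d2 and Tmco3 had 259 and 437 bp in Ctrl, 382 and 235 bp in SR2 and 729 and 0 bp in THC, under 979 bp of H3K4me3 in every library. B4galt5, a galactosyltransferase of glycolipid synthesis, had 728 and 0 bp in Ctrl, 443 and 275 bp in SR2 and 380 and 0 bp in THC. Cast, the calpain inhibitor calpastatin, had 331 and 514 bp in Ctrl and 890 bp in SR2 replicate 1. Tmem267 was the only named inside start with H3K27me3 in all 6 libraries, over 611 to 984 bp. The H3K27me3 rank of inside starts had a median of 45.6 in Ctrl replicate 1 and 31.4 to 53.8 in the other libraries. Extending starts had 72.0 in Ctrl replicate 1 and 52.2 to 77.5 in the 4 other libraries with such a peak.

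**Figure D4:**
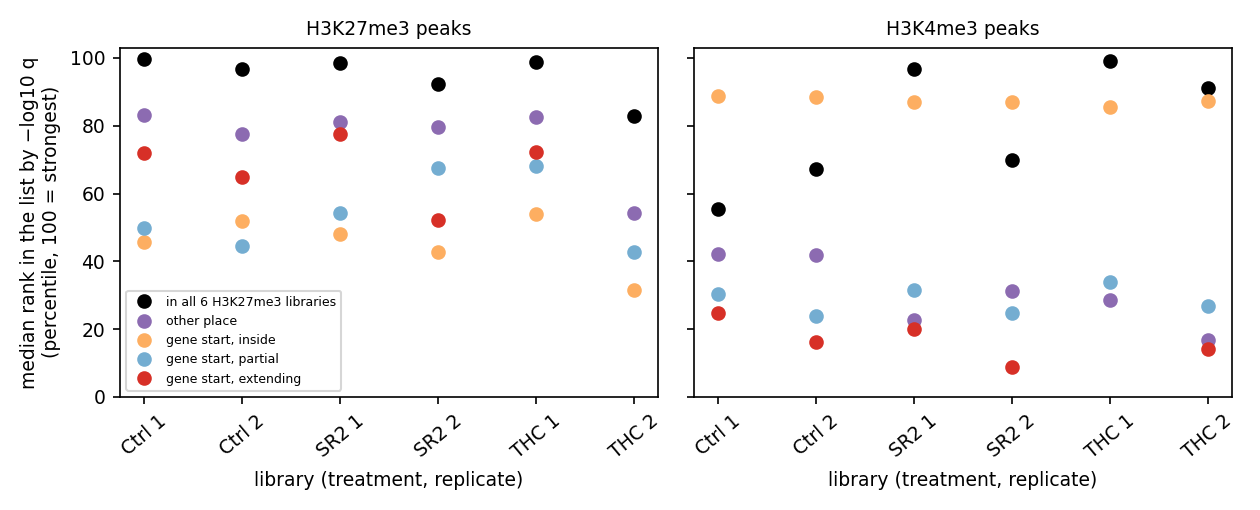
Median rank by −log10 q in percentiles (y axis) of H3K27me3 peaks (left) and H3K4me3 peaks (right) at overlapping regions of each class, per library (x axis), with 1 point per class. Regions with H3K27me3 in all 6 libraries (black) rank highest among the H3K27me3 peaks of every library, and inside starts (orange) rank above 85 in every H3K4me3 list.

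The 339 members at other places (25.0%) behaved differently from gene starts. Of these, 136 lay in a protein-coding gene, 37 in another kind of gene and 166 in no gene. H3K27me3 marked 51 of them (15.0%) in at least 4 libraries, against 16 of 1016 (1.57%) at gene starts, and 22 of the 25 members with H3K27me3 in all 6 libraries were at no gene start. Just 26 H3K27me3 regions of all 4183 were in all 6 libraries, and 17 members had peaks in all 12 libraries. The median H3K4me3 rank at other places was 15.9, against 84.1 at gene starts.

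The regions marked in every library ranked at the top of the H3K27me3 lists, with median ranks of 99.6, 96.6, 98.6, 92.4, 98.8 and 82.9 over the libraries. The longest, 5599 bp on chromosome 17 (chr17:39843150-39848748), covered the 18S ribosomal RNA pseudogene Rn18s-rs5 and the noncoding AY036118. H3K27me3 covered 4663 to 5599 bp of it and H3K4me3 4344 to 4699 bp. A region at the 5S ribosomal RNA gene n-R5s149 on chromosome 8 (chr8:123621910-123623882) was 1973 bp long in Ctrl replicate 1 and 303 to 362 bp in the other 5 libraries. Other short regions lay in the bodies of Lars2 (408 bp), Cdk8 (368 bp), Zc3h7a (408 bp), Camk1d (325 bp) and Aida (460 bp). Lars2 held the strongest H3K27me3 peak of 4 libraries and ranked at 99.4 or above in the other 2. All 5 had peaks of both antibodies in every library, except that H3K4me3 was missing at Aida in Ctrl replicate 1. No input library was used here, and why both antibodies marked these places was not tested.

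**Figure D5:**
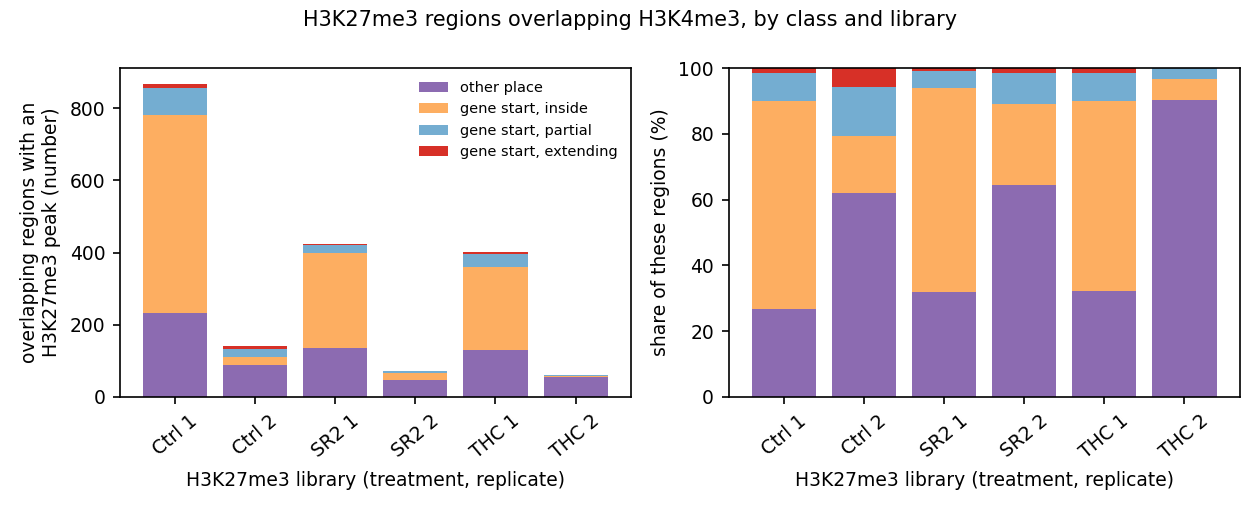
Overlapping regions with a peak in each H3K27me3 library (x axis), as numbers (left) and as shares in percent (right), by class. Ctrl replicate 1 has the most, 868, and the batch 2 libraries, with 140, 73 and 61, hold mostly other places (purple), while inside starts (orange) make up most of each batch 1 list.

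Between treatments, the share of H3K27me3 peaks that overlapped H3K4me3 was first compared. In Ctrl it was 32.1% (95% Wilson interval 30.3 to 33.8) and 36.5% (31.9 to 41.4), in SR2 51.0% (47.6 to 54.4) and 47.1% (39.5 to 54.9), and in THC 40.9% (37.9 to 44.0) and 87.1% (77.3 to 93.1), where intervals cover counting error only. Every treated library lay above both Ctrl libraries. The means were 34.3 ± 3.16% in Ctrl, 49.1 ± 2.74% in SR2 and 64.0 ± 32.7% in THC (SD, n = 2 libraries each). The difference from Ctrl was 14.8 points for SR2 and 29.7 for THC, each at p = 0.333 in an exact two-sided permutation test, the smallest that 2 against 2 libraries allow. Within batches, SR2 minus Ctrl was 18.96 points in batch 1 and 10.6 in batch 2, and THC minus Ctrl 8.84 and 50.6. The lists differed widely in length. Among the strongest 70 peaks of each list, the share was 75.7%, 81.4% and 78.6% in replicate 1 of Ctrl, SR2 and THC and 72.9%, 62.9% and 87.1% in replicate 2. The mean difference from Ctrl was then −2.14 points for SR2, with SR2 lower, and 8.57 points for THC. THC replicate 2 had only 70 peaks, so its whole list entered, weakest peaks included.

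Peaks of H3K27me3 in both Ctrl libraries were found at 100 members. Of these, 35 had none in either SR2 library and 33 none in either THC library, and 6 and 3 members showed the reverse. The 35 included the developmental genes Dlx1, Dlx2, Neurog2, Pou3f2, Foxe3, Tbx2 and Gata6, with Pparg, a regulator of fat cell differentiation, over 817 and 1018 bp in Ctrl, and Hdac2, a histone deacetylase, over 315 and 310 bp. The 6 seen in both SR2 libraries alone included the starts of Ist1 and Sertad2. Regions without H3K4me3 gave 41 and 40 in the Ctrl-only direction out of 86, and 1 and 1 in the reverse. The Ctrl libraries hold more peaks, and the part of list length in these counts was not tested.

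Breadth was then tested with limma on log2(covered bp + 200) over all regions marked in at least 2 libraries, with Benjamini-Hochberg adjustment. For H3K27me3, which was not centred, 551 regions were tested, 345 of them members, and none passed an adjusted p of 0.05 in either contrast (0% of all regions; smallest 0.0962 for SR2 and 0.0937 for THC). At an unadjusted p under 0.05, 31 members were narrower in SR2 (8.99%), against 12.2% of all regions tested, and 2 were wider (0.580%), against 0.363%. With libraries centred on regions marked in at least 4 of them, the split became 8 and 5, beside 25 and 6 among all 551 regions. For THC, 25 members were narrower (7.25%), against 11.6%, and 2 were wider (0.580%), against 0.544%. That split reversed to 1 and 44 with the same centring, beside 3 and 64 among all regions. The median change of the members was −0.23 for SR2 and −0.34 for THC, beside −0.58 and −0.51 over all regions, and turned to 0.23 and 0.72 with the centring, which removed shifts of −0.46 and −1.06. Over all regions the centred medians were −0.11 and 0.55. Without Ctrl replicate 1 the member median for SR2 was 0.14. The direction of the H3K27me3 change at members therefore depended on the scaling. Of 24 developmental regions tested, 23 had a negative fitted change in each contrast, against 400 of all 551 regions for SR2 and 408 for THC, with medians of −0.85 and −1.07. Among all 36 developmental starts, 34 had H3K27me3 in Ctrl replicate 1, so the choice of regions favoured a negative change. With the centring, 15 and 12 of the 24 were negative, with medians of −0.39 and −0.01.

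For H3K4me3, 15771 regions were tested, 1155 of them at members, and again none passed (0% of all regions; smallest adjusted p 0.122 for SR2 and 0.128 for THC in limma). At an unadjusted p under 0.05, 33 members were narrower in SR2 (2.86%), against 8.91% of all regions, and 20 wider (1.73%), against 0.653%. For THC, 82 were narrower (7.10%), against 18.4%, and 126 wider (10.9%), against 4.41%. Libraries had been centred on the 10140 regions marked in all 6, which removed shifts of −0.14 for SR2 and −0.38 for THC. The median change at members was 0.05 for SR2 and 0.12 for THC with this centring, and turned to −0.09 and −0.26 without it, beside −0.17 and −0.52 over all regions. The split of narrower and wider members then became 59 and 13 for SR2, beside 1633 and 34 among all 15771 regions. For THC it became 321 and 8, beside 5938 and 11 among all regions. With centring, the medians over all regions were −0.03 and −0.15.

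Presence of H3K4me3 at developmental starts is given as a description, since the rule kept regions by such peaks. Of the 36, 12 met the rule through Ctrl H3K4me3 libraries alone, 4 through treated libraries alone and 20 through both. An H3K4me3 peak was present at 29 and 23 of the 36 in the Ctrl libraries, at 13 and 19 in SR2, and at 4 and 9 in THC. No treated library reached the count of either Ctrl library, and the THC libraries had the lowest counts in each batch. The means were 26.0 ± 4.24, 16.0 ± 4.24 and 6.50 ± 3.54 (SD, n = 2 libraries each). At the other 951 protein-coding starts, a peak was present in 98.0%, 91.9% and 86.9% of cases in replicate 1 of Ctrl, SR2 and THC and in 95.3%, 94.3% and 90.2% in replicate 2. The 26 developmental starts with H3K27me3 in a library other than Ctrl replicate 1 gave 20 and 16, 8 and 14, and 4 and 5.

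In the breadth fit, 25 H3K4me3 regions at developmental starts were tested. These had H3K4me3 in at least 2 libraries, 5 of them in the Ctrl libraries alone and none in treated libraries alone, so the choice of regions set the direction at those 5. The fitted change was negative at 25 in THC and 16 in SR2, with medians of −1.04 and −0.37, which were −1.42 and −0.51 without centring. None passed the limma adjusted p, and 11 of the 25 were narrower in THC at an unadjusted p under 0.05 and 6 in SR2, against 18.4% and 8.91% of all regions. The 15 H3K4me3 regions at housekeeping members had medians of 0.21 for THC and 0.09 for SR2, which turned to −0.17 and −0.05 without centring. Developmental H3K4me3 peaks ranked low, at medians of 24.7 and 25.4 in the Ctrl lists, and the H3K4me3 lists of treated libraries were shorter. The part of the choice of regions, peak strength and list length in this difference was not tested.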

How the data were processed

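CUT&Tag peak lists, 1 per library, were deposited for 6 H3K4me3 (narrow) and 6 H3K27me3 (broad) libraries, each from 500000 cells with 60 min of tagmentation and 150 bp paired reads, per the labels' protocols. Build mm10 and the tools MACS3, Bowtie2 2.5.4, cutadapt 5.2, SAMtools 1.8, bedtools, deepTools and Picard are listed, with no role or setting, per the submitters' processing notes. Peaks were called per library, since peak names carry 1 library. The deposited score of a peak is the whole part of 10 times its −log10 q in all H3K27me3 lines and in at least 99.886% of the lines of each H3K4me3 list, the deposited ratio is the authors' fold enrichment over background, and the deposited −log10 p and −log10 q are the caller's. −log10 q served only to rank or filter peaks within a list.

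Peaks on chromosomes 1 to 19 and X were merged at 1 bp of overlap, and bp covered by each library were counted (Python 3.11.15, pandas 2.3.3). Gene starts came from 32619 RefSeq windows of 26794 genes. All 444 listed genes were in the gene table, 308 with a window. Ranks, shares and lengths were compared by exact permutation tests over libraries, and breadth with limma 3.58.1 in R 4.3.3, all 6 libraries of a mark in 1 fit, with H3K4me3 centred and H3K27me3 not. Scripts were tested on simulated data. Named genes were all list members hit and, per class, up to 8 regions with the most H3K27me3 libraries; those named beside counts of presence, and Neurog2, Gm42303 and the regions in all libraries, were chosen after their values were seen. The members and lists were chosen with earlier results of these data known. The pooled developmental set and its breadth values, the strongest 70 peaks and the settings without Ctrl replicate 1 were added after seeing the data.

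The replicate number is the batch in the labels, so it pairs libraries, and a fit with the replicate as a block was run as an alternative. The differences between replicates were hardly correlated between treatments. Their correlations were −0.0242 to −0.00449 for H3K27me3 and −0.0620 to 0.0477 for H3K4me3. Alternatives varied the overlap, peak thresholds, start width, pseudocount, filter, centring and libraries. Exons, introns, UTRs and the Y chromosome were not analysed here, and no genome sequence beyond the windows was used.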

Additional observations from a re-analysis of the deposited data

Results flagged for a closer look

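Peaks outside chromosomes 1 to 19 and X entered no comparison, and their share of the H3K27me3 list was above that of the Ctrl library of the same batch in each treated library. It was 2.21% in SR2 replicate 1, 8.72% in SR2 replicate 2, 3.34% in THC replicate 1 and 15.66% in THC replicate 2, against 0.660% and 3.74% in Ctrl. The counts were small, at 19, 15, 34 and 13 peaks against 18 and 15, and the difference was not tested.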

How the results depend on the processing

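Of 70 pairs of a result and a setting other than leaving out a library, 50 kept their direction and side of the threshold, or their size within 1.5 times. The gene start difference passed the threshold with 50% overlap (32.1 points) and with H3K4me3 −log10 q of at least 5 (38.1), both at an exact permutation p of 0.03125, and fell to 10.7 (p = 0.156, exact) with H3K27me3 −log10 q of at least 2. The SR2 share difference turned to −2.14 points in the strongest 70 peaks, and the THC share difference was 8.57 points there. With 500 bp, 2000 bp, 50% overlap or H3K27me3 −log10 q of at least 2, extending regions (25 in all places) numbered 90, 3, 3 and 9, and bivalent candidates 39, 0, 1 and 2. The last setting left 392 members, 202 gene starts, 303 inside and 172 inside strong H3K4me3. Without H3K27me3 Ctrl replicate 1 these were 761, 534, 625 and 451, with 10 extending and 2 candidates. Members called by limma numbered 1 for H3K27me3 in SR2 when regions in 1 library were tested, 22 and 38 for H3K4me3 in SR2 and THC with a pseudocount of 50 bp (1.90% and 3.29%, against 6.71% and 8.98% of all regions), and 19 and 72 without centring (1.65% and 6.23%, against 6.30% and 12.1%). With the replicate block 0 members were called in each of the 4 fits, as without it. The causes were not tested.

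Leaving out a library gave 0 to 22 called members for H3K27me3 in SR2, 0 to 21 in THC, 0 in SR2 for H3K4me3 and 0 to 135 in THC. The 21 or 22 H3K27me3 calls (6.09% or 6.38% of members, against 8.17% to 8.35% of all regions) came without Ctrl replicate 1 or 2, where the lone Ctrl library is assumed to vary like the other groups, and 1 in SR2 came without SR2 replicate 1. The 135 (11.7%, against 13.6%) came without THC replicate 2. Differences ranged from 24.8 to 37.2 points for gene starts, 12.8 to 17.0 for the SR2 share and 6.60 to 51.6 for the THC share. Rank differences were 17.7 to 22.6 (H3K27me3) and 35.0 to 35.6 (H3K4me3), and log2 length ratios 0.27 to 0.34 and 0.45 to 0.48, where 5 pairs cannot give an exact p under 0.0625. Read depth is unknown, so absence of a peak in the short batch 2 lists limits every count of presence.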

Other observations

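The X chromosome held 34 overlapping regions (2.51% of members), against 7.99% of the H3K27me3 regions without H3K4me3. H3K4me3 peaks at the 339 other places were present at 127, 220 and 105 in replicate 1 of Ctrl, SR2 and THC and at 112, 135 and 182 in replicate 2, so that the highest counts were in SR2 replicate 1 and THC replicate 2. Among the 6 members with H3K27me3 in both SR2 libraries and in no Ctrl library, the longest was a region of 2593 bp in no gene on chromosome 1 (chr1:31791872-31794464), with 2534 and 308 bp. Platr30, a noncoding gene, had 2055 and 1485 bp of H3K27me3 in Ctrl, 905 bp in SR2 replicate 1 and 2087 bp in THC replicate 1, with a single H3K4me3 peak of 344 bp in SR2 replicate 1. Evx1os, antisense to the homeobox gene Evx1, had 1430, 1031 and 1151 bp in the batch 1 libraries of Ctrl, SR2 and THC, and 326 bp of H3K4me3 in SR2 replicate 1.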
